A study of Mus musculus with 3 samples.

Results

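The TNF superfamily ligands and receptors are secreted and membrane proteins through which immune, stromal and epithelial cells instruct each other. On the arrays they were the genes named Tnf, Lta, Ltb, Fas or Fasl, or with a symbol that starts with Tnfsf or Tnfrsf and a number. This rule found 36 of the 19728 named genes, 15 of them ligands and 21 receptors, read by 52 probes on 106 spots of each array. Total RNA of adult liver from C57BL/6 mice of 12 weeks, fetal liver of the same strain at gestation day 13.5 and C57BL/6 bone marrow was hybridised to 1 array each, and the labels name no allele or treatment for any of them. The labels do not settle whether the bone marrow donors were of the same 12 weeks, and neither sex nor how many animals were pooled is given in the sources used here.

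Most TNF ligands are trimers made as membrane proteins, some of them released by proteases, and they bind receptors with cysteine-rich domains. Receptors with a death domain can start apoptosis through adaptors and caspases, receptors without one recruit TRAF adaptors and activate NF-kB, and decoy receptors bind ligand without signalling. In bone marrow the family is known for B-cell survival, lymphoid organisation and osteoclast formation, in adult liver for the death and regeneration of hepatocytes, and the fetal liver is at this stage mainly a blood-forming organ.

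A scaled signal is the background-subtracted intensity of a probe divided by the 75th percentile over all gene spots of its array, which was 296.5, 386 and 894.5 intensity units in adult liver, fetal liver and bone marrow. A probe that the scanner did not place well above background has only a bound, and the fold against it is given as "at least", from its own signal or, where higher, the dimmest signal still well above background on that array (scaled 0.0637 for adult liver and 0.0389 for fetal liver, with 0.0265 for bone marrow). A single array per tissue gives neither a spread between samples nor a test, so a fold of at least 4 describes these 3 arrays. The median SD of log2 signal over repeat spots of 1 probe was 0.070 for adult liver and 0.066 for fetal liver, with 0.052 for bone marrow, which covers spot noise alone. In whole tissue, fewer cells of a type and less RNA per cell cannot be told apart.

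The marker genes matched the tissue labels. The scaled signals of 6 hepatocyte genes summed to 1494 in adult liver and 189.5 in fetal liver, against 0.448 in bone marrow, where Alb, Apoa1, Ttr, Cyp2e1 and Cps1 were not well above background. The sum of 6 erythroid genes was 52.6 in adult liver and 591.2 in fetal liver, against 410.7 in bone marrow. That of 5 neutrophil genes was 0.286 in adult liver and 63.2 in fetal liver, against 1236 in bone marrow, and that of 6 B-lineage genes was 1.24 in adult liver and 1.51 in fetal liver, against 75.6 in bone marrow. Cd79a and Pax5 of the B-lineage list were not well above background in either liver.

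The array of adult liver had 18 of the 36 members well above background, that of fetal liver 21 and that of bone marrow 27, with 29 on at least 1 array and 15 on all 3. Such a signal was found for 65.4% of all 19728 genes on the adult liver array and 70.3% on that of fetal liver, with 70.6% on that of bone marrow, so the members' share in bone marrow was near that of all genes. Among the 29, the tissue with the highest signal well above background was adult liver for 8, fetal liver for 6 and bone marrow for 15, whereas over all 15335 genes of that kind adult liver held 37.3%, fetal liver 33.1% and bone marrow 29.6%.

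In adult liver against fetal liver, 1 member was at least 4-fold higher and 7 at least 4-fold lower among 22 with a fold, where 14.2% of all genes with a fold were higher and 12.0% lower. In adult liver against bone marrow, 3 were higher and 9 lower of 27, against 18.8% and 15.0% of all genes. In fetal liver against bone marrow, 1 was higher and 12 lower of 27, against 9.35% and 8.29% of all genes. The members' median log2 differences, bounds included, were 0.24, -0.71 and -1.09 in these comparisons, and those of all genes -0.06, 0.09 and 0.27. Over the 16, 16 and 20 members measured in both tissues the medians were 0.48, -0.41 and -0.19. All genes measured in both had 0.03, 0.16 and 0.25.

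A member enters such counts through the tissue where it is high, so the 15 members well above background on all 3 arrays were also counted. Of these, 1 was higher and 4 lower in adult liver than in fetal liver, where all genes of that kind had 11.5% and 10.2%. Against bone marrow, 1 was higher and 5 lower in adult liver (all genes 15.4% and 12.2%), and none was higher and 7 lower in fetal liver (all genes 6.87% and 6.38%). Both livers are set against the same bone marrow array, so those comparisons are not independent of each other.

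The scale and the background correction set how many of these differences stand. With normexp correction, which starts from the raw spot and its local background and adds an offset of 50, 19 of 32 differences with a value stayed at least 4-fold. Those that came under 4-fold were Tnfrsf13b, Tnfrsf13c, Tnfrsf21, Tnfrsf25 and Tnfsf13b between the livers, Tnfrsf14 between adult liver and bone marrow, Tnf between fetal liver and bone marrow, and Tnfrsf11b, Tnfrsf17 and Tnfrsf26 between either liver and bone marrow. Scaling to 7 spike-in probes moved the median of all genes by -2.88 in adult liver over bone marrow and by -2.45 in fetal liver over bone marrow. On that scale 1 of 27 members with a value, Tnfrsf12a at 0.22 on the log2 scale, was above 0 in adult liver over bone marrow, where 8 of 27 were on the percentile scale, and 0 of 27 in fetal liver over bone marrow, where 9 of 27 were. Each higher signal in a liver than in bone marrow given here is therefore relative to the 75th percentile.

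**Figure D1:**
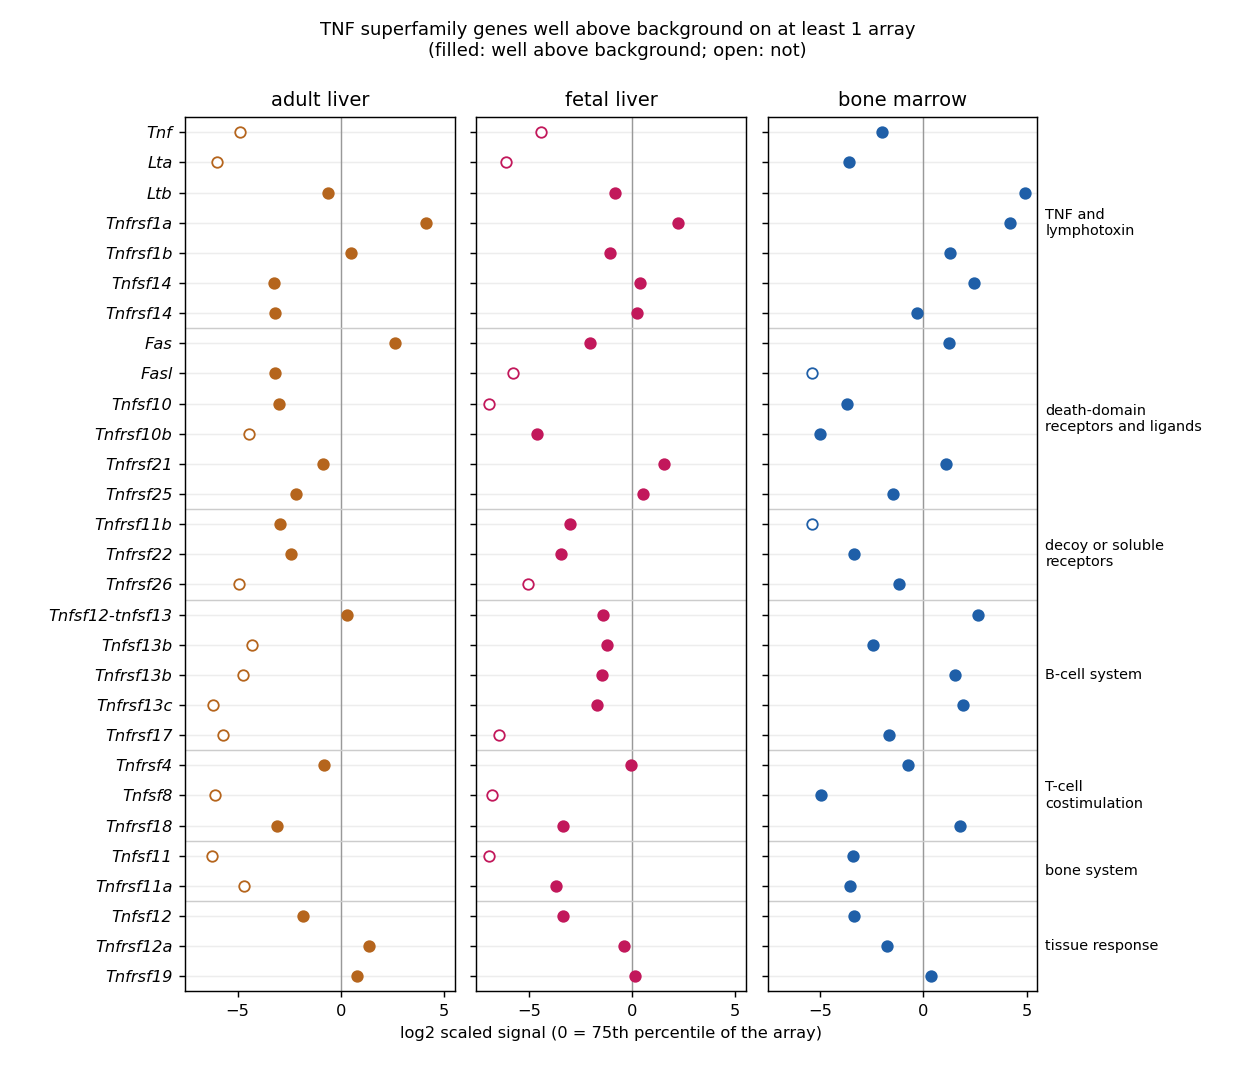
Log2 scaled signal (x axis, 0 is the 75th percentile of the array) of the 29 members well above background on at least 1 array (rows, grouped by role), in adult liver, fetal liver and bone marrow from left to right. Filled points are well above background and open points are not. Ltb, Tnfrsf18, Tnfrsf13b and Tnfrsf13c lie to the right in bone marrow, and Fas lies to the right in adult liver.

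With each tissue set against both others, 8 of the 29 members were at least 4-fold lower in both livers than in bone marrow (5.09% of all 15335 genes well above background on at least 1 array). They were Ltb, Tnfrsf13b, Tnfrsf13c, Tnfrsf17, Tnfrsf18, Tnfrsf26, Tnfsf14 and the gene named Tnfsf12-tnfsf13. Tnfrsf17 and Tnfrsf26 were well above background in bone marrow alone, so they entered through that tissue and their folds are bounds. Tnfrsf13b and Tnfrsf13c were not well above background in adult liver, so their folds there are bounds too. Of the 29, only Tnfrsf11b was at least 4-fold higher in both livers than in bone marrow (5.53%). Tnfrsf13b, Tnfrsf13c, Tnfrsf14 and Tnfsf14 were at least 4-fold lower in adult liver than in both other tissues (7.10%), and no member was at least 4-fold higher there (10.6%). Fas was the 1 member at least 4-fold lower in fetal liver than in both others (1.53%), and none was at least 4-fold higher there (1.69%).

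The promoters of 5 members, chosen after their values were seen, are shown: those of Ltb and Tnfrsf18, which were far lower in both livers than in bone marrow, of their neighbours Tnf and Tnfrsf4, and of Tnfrsf17, which was well above background in bone marrow alone. RefSeq promoters of build GRCm38.p6, running from 250 bases before the start of transcription to 50 after it, were found for 29 of the 36 genes, 33 promoters in all. Ltb (chr17:35194257-35194556, plus strand) and Tnf (chr17:35201958-35202257, minus strand) lie in 1 cluster. Tnfrsf18 (chr4:156026072-156026371, plus strand) and Tnfrsf4 (chr4:156013445-156013744, plus strand) are neighbours with different patterns, and Tnfrsf17 lies apart from them (chr16:11313559-11313858, plus strand). Capitals mark matches, on either strand, to an NF-kB site, to TATAAA, the box that positions transcription starts, and to GAGGAA, a core sequence read by the myeloid and B-cell factor PU.1.
Ltb: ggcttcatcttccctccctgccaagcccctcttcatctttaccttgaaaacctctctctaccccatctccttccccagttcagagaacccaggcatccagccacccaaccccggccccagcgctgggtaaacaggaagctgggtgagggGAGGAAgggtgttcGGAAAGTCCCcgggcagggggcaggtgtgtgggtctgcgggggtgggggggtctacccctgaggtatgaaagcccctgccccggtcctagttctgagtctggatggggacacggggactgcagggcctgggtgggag
Tnf: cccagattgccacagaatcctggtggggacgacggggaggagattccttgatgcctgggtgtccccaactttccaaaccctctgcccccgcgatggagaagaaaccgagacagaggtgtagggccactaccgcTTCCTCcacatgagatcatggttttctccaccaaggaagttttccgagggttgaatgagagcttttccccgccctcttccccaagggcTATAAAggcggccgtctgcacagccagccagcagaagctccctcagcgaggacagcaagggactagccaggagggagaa
Tnfrsf18: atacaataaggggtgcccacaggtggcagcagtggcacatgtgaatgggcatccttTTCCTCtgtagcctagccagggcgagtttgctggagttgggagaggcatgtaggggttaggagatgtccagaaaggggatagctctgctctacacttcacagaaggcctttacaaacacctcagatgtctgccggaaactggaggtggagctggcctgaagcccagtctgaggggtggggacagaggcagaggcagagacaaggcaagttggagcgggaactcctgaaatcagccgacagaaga
Tnfrsf4: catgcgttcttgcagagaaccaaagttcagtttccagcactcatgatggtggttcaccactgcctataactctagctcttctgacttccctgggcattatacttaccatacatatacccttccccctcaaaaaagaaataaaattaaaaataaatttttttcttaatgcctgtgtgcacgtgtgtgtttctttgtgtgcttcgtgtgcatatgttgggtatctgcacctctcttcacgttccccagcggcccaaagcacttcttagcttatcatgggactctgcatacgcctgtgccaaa
Tnfrsf17: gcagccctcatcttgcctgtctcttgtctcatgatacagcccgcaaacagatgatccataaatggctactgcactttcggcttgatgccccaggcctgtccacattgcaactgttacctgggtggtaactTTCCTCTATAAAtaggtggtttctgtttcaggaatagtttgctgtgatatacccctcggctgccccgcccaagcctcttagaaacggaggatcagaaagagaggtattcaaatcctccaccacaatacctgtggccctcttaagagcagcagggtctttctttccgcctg

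The first base of a match is counted from the start of transcription as 0. The Ltb window held GAGGAA at -101 and the NF-kB site at -87, and that of Tnf held GAGGAA at -117 and TATAAA at -29. Tnfrsf18 had GAGGAA at -194, Tnfrsf17 had GAGGAA at -120 directly followed by TATAAA at -114, and the Tnfrsf4 window had no match to either of these or to the NF-kB site. GAGGAA stood in 28.3% of all 32851 promoters of the table, in those of 11 of the 29 member genes, and in those of 6 of the 10 with a promoter that were highest in bone marrow and at least 4-fold lower in fetal liver. TATAAA stood in 13.6% of all promoters, in those of 6 member genes and in 2 of those 10. The NF-kB site stood in 8.46% of all promoters, in those of 4 member genes and in 1 of the 10, and the palindromic motif of the B-cell factor EBF1 in 0.904%, with 0 members. A match is a description of these letters only.

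Among the TNF and lymphotoxin genes, no member with a fold was at least 4-fold higher in either liver than in bone marrow, and 3 of 7 were at least 4-fold lower in adult liver (15.0% of all genes) and 5 of 7 in fetal liver (8.29% of all genes). In each comparison 5 of the 7 were measured in both tissues, and Tnf and Lta gave bounds. Ltb encodes lymphotoxin beta, the membrane partner that anchors lymphotoxin alpha and is needed to form lymph nodes. Its probe (mm9, chr17:35333097-35333156) had a scaled signal of 0.648 in adult liver and 0.565 in fetal liver, with 30.5 in bone marrow. It was high in bone marrow alone, 47.1-fold lower in adult liver and 54.0-fold lower in fetal liver than in bone marrow. The livers themselves were 1.15-fold apart.

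Tnf, the founding cytokine of the family, and Lta, which encodes lymphotoxin alpha, were measured on 10 spots per array. The scaled signal of Tnf was 0.0336 in adult liver and 0.0465 in fetal liver, against 0.2496 in bone marrow. On the adult liver array 0 of 10 spots stood well above background, on the fetal liver array 5 of 10, and on the bone marrow array all 10. The spots reached at most 0.0735 in adult liver and 0.0580 in fetal liver, below every bone marrow spot (0.231 to 0.264). Tnf was at least 3.92-fold lower in adult liver and at least 5.37-fold lower in fetal liver than in bone marrow. Lta had 0.0157 in adult liver and 0.0146 in fetal liver, against 0.0825 in bone marrow, and was well above background in bone marrow alone, at least 1.29-fold lower in adult liver and at least 2.12-fold lower in fetal liver. The probes of Ltb, Tnf and Lta lie within 7119 bases of each other on mm9, and all 3 genes were highest in bone marrow.

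The TNF receptors were well above background everywhere. Tnfrsf1a, the death-domain receptor found on most cells, had a scaled signal of 17.2 in adult liver and 4.60 in fetal liver, with 18.7 in bone marrow. Its spots ran from 16.6 to 17.7 in adult liver, from 4.40 to 4.79 in fetal liver and from 18.3 to 18.8 in bone marrow, so that the low tissue was fetal liver, 4.06-fold lower than bone marrow. Adult liver was 3.75-fold higher than fetal liver and 1.08-fold lower than bone marrow. Tnfrsf1b, the receptor without a death domain that is found mainly on immune and endothelial cells, had 1.39 in adult liver and 0.478 in fetal liver, against 2.47 in bone marrow on its probe with 10 spots and was 5.17-fold lower in fetal liver than in bone marrow. Its second probe gave 0.587 in adult liver and 0.396 in fetal liver, against 0.504 in bone marrow, with fetal liver 1.27-fold lower than bone marrow. Adult liver was 1.16-fold above bone marrow on this probe and 1.78-fold below it on the first. The mean of both probes left the difference between fetal liver and bone marrow at -1.36 on the log2 scale, under 4-fold.

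**Figure D2:**
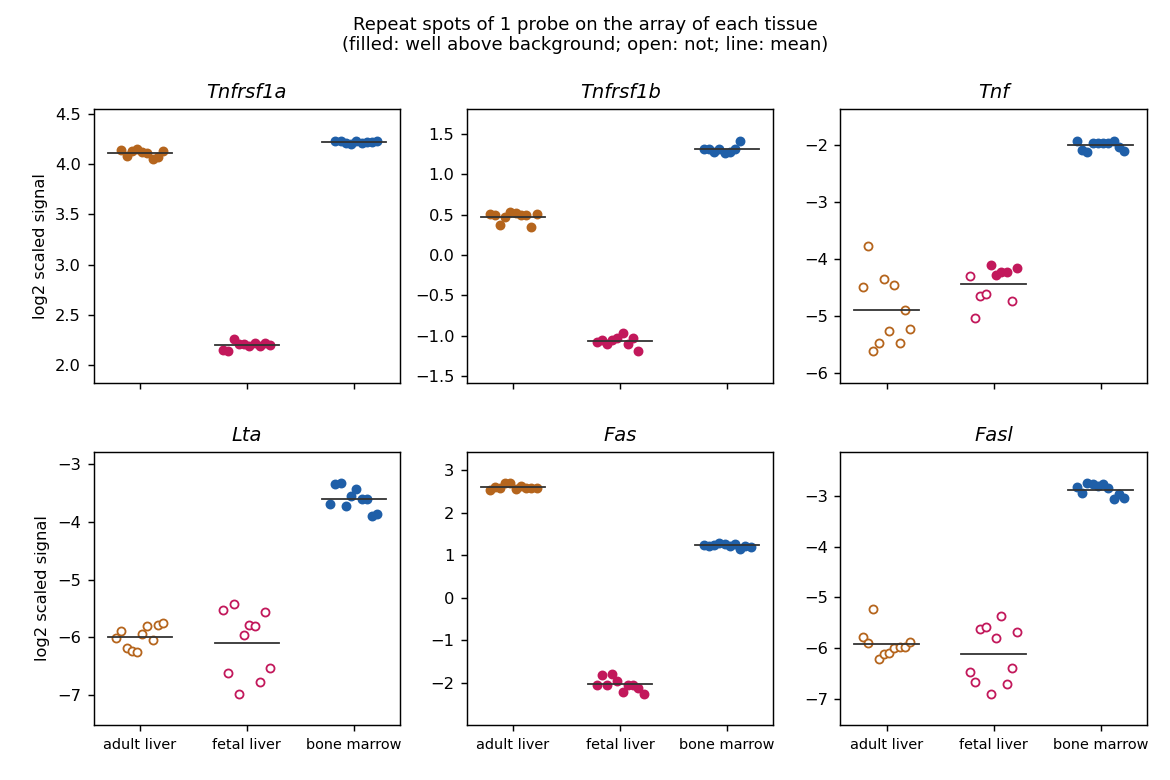
Log2 scaled signal (y axis, own range in each panel) of each used spot of the 6 member probes that are printed 10 times per array, in adult liver, fetal liver and bone marrow from left to right. Filled points are well above background, open points are not, and lines are means over spots of 1 array. For Tnfrsf1a, Tnfrsf1b and Fas the 3 tissues do not overlap, and for Tnf, Lta and this Fasl probe bone marrow lies above both livers.

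Tnfsf14 encodes LIGHT, a ligand of activated T cells and myeloid cells, and Tnfrsf14 encodes its receptor HVEM. Tnfsf14 had a scaled signal of 0.107 in adult liver and 1.28 in fetal liver, against 5.41 in bone marrow. The order was the same at each step, with adult liver 11.9-fold lower than fetal liver and 50.4-fold lower than bone marrow, and fetal liver 4.23-fold lower than bone marrow. Tnfrsf14 had 0.109 in adult liver and 1.16 in fetal liver, against 0.796 in bone marrow, so adult liver was 10.7-fold lower than fetal liver and 7.31-fold lower than bone marrow, while fetal liver and bone marrow were 1.46-fold apart. Its second probe, not well above background in adult liver, gave at least 5.73-fold and at least 5.19-fold lower in adult liver.

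The death receptors and their ligands went different ways. Fas, the receptor through which cytotoxic T cells kill hepatocytes and other cells, had the widest difference between the livers of all members with a fold (mm9, chr19:34401902-34401961). Its scaled signal was 6.10 in adult liver and 0.244 in fetal liver, with 2.36 in bone marrow. Over 10 spots per array it ran from 5.80 to 6.51 in adult liver, from 0.209 to 0.290 in fetal liver and from 2.21 to 2.46 in bone marrow, and no ranges overlapped. Fas was 24.95-fold higher in adult liver than in fetal liver, 2.59-fold higher there than in bone marrow and 9.64-fold lower in fetal liver than in bone marrow. The second probe, not well above background in fetal liver, gave at least 12.8-fold higher in adult than in fetal liver, 1.41-fold higher than in bone marrow for adult liver, and at least 9.09-fold lower in fetal liver than in bone marrow.

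The probes of its ligand Fasl disagreed. One (mm9, chr1:163718079-163718138) was well above background in adult liver alone, with 0.109 in adult liver and 0.0182 in fetal liver, against 0.0239 in bone marrow, adult liver being at least 4.10-fold above bone marrow. The other (mm9, chr1:163711300-163711359), on 10 spots per array, was well above background in bone marrow alone, with 0.0165 in adult liver and 0.0144 in fetal liver, against 0.136 in bone marrow, at least 2.13-fold lower in adult liver and at least 3.50-fold lower in fetal liver. Bone marrow spots of the second probe ran from 0.1196 to 0.149, above all spots in either liver. The mean over both probes gave -0.43 on the log2 scale for adult liver over bone marrow.

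Tnfsf10, the ligand TRAIL, had 0.126 in adult liver, 0.00832 in fetal liver, not well above background, and 0.0773 in bone marrow, at least 3.25-fold higher in adult than in fetal liver. Its receptor Tnfrsf10b stayed near the background limit, with 0.0459 in adult liver, not well above background, 0.0407 in fetal liver and 0.0313 in bone marrow. Tnfrsf25 and Tnfrsf21 are death-domain receptors of T cells and, for Tnfrsf21, also of neurons. Tnfrsf25 had 0.2202 in adult liver and 1.42 in fetal liver, with 0.361 in bone marrow, 6.46-fold lower in adult liver than in fetal liver and 3.94-fold higher in fetal liver than in bone marrow, while a second probe was dim on all 3 arrays. Tnfrsf21 had 0.553 in adult liver and 2.95 in fetal liver, against 2.13 in bone marrow, 5.34-fold lower in adult liver than in fetal liver and 3.86-fold lower than in bone marrow. A second Tnfrsf21 probe gave 5.09-fold and 4.27-fold lower in adult liver, and the last, at 0.202 in fetal liver and 0.0281 in bone marrow, had fetal liver 7.201-fold higher than bone marrow where the first had 1.38-fold. Fetal liver was the high tissue for Tnfrsf25 and on each Tnfrsf21 probe, and the mean of both Tnfrsf25 probes left its difference between the livers under 4-fold.

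Of the decoy and soluble receptors, Tnfrsf11b encodes osteoprotegerin, which binds RANKL and so limits osteoclast formation. It had 0.130 in adult liver and 0.125 in fetal liver, and in bone marrow 0.0240, not well above background. Both livers were higher than bone marrow, adult liver at least 4.91-fold and fetal liver at least 4.71-fold, and both differences came under 4-fold also with quantile normalization and with the 50th percentile as the scale. Most markers of stromal and vessel cells were also higher in the livers, the sum of 4 mesenchymal genes being 41.0 in adult liver and 36.7 in fetal liver, against 7.79 in bone marrow, and that of 4 endothelial genes 14.3 in adult liver and 9.48 in fetal liver, against 1.63 in bone marrow. Dcn made up 33.6 of the mesenchymal sum in adult liver and Col1a1 made up 26.4 of it in fetal liver. Pecam1 went the other way, with 0.173 in adult liver and 0.141 in fetal liver, against 0.2465 in bone marrow, and Col1a1 was 1.38-fold lower in adult liver than in bone marrow. Of these markers only Lrat was not well above background on some arrays, those of fetal liver and bone marrow. Their part in the result was not tested.

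Tnfrsf22, Tnfrsf23 and Tnfrsf26 are neighbouring mouse genes on chromosome 7, the first pair of which encode decoy receptors for TRAIL. Tnfrsf26 had 0.0328 in adult liver and 0.0306 in fetal liver, neither well above background, and 0.443 in bone marrow, at least 6.94-fold lower in adult liver and at least 11.4-fold lower in fetal liver. Tnfrsf22, whose probe lies 29345 bases away on mm9, had 0.190 in adult liver and 0.0920 in fetal liver, against 0.0989 in bone marrow, 2.07-fold higher in adult than in fetal liver and 1.92-fold higher than in bone marrow. Tnfrsf23 was dim on all 3 arrays. The 3 neighbours thus had no pattern in common.

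**Figure D3:**
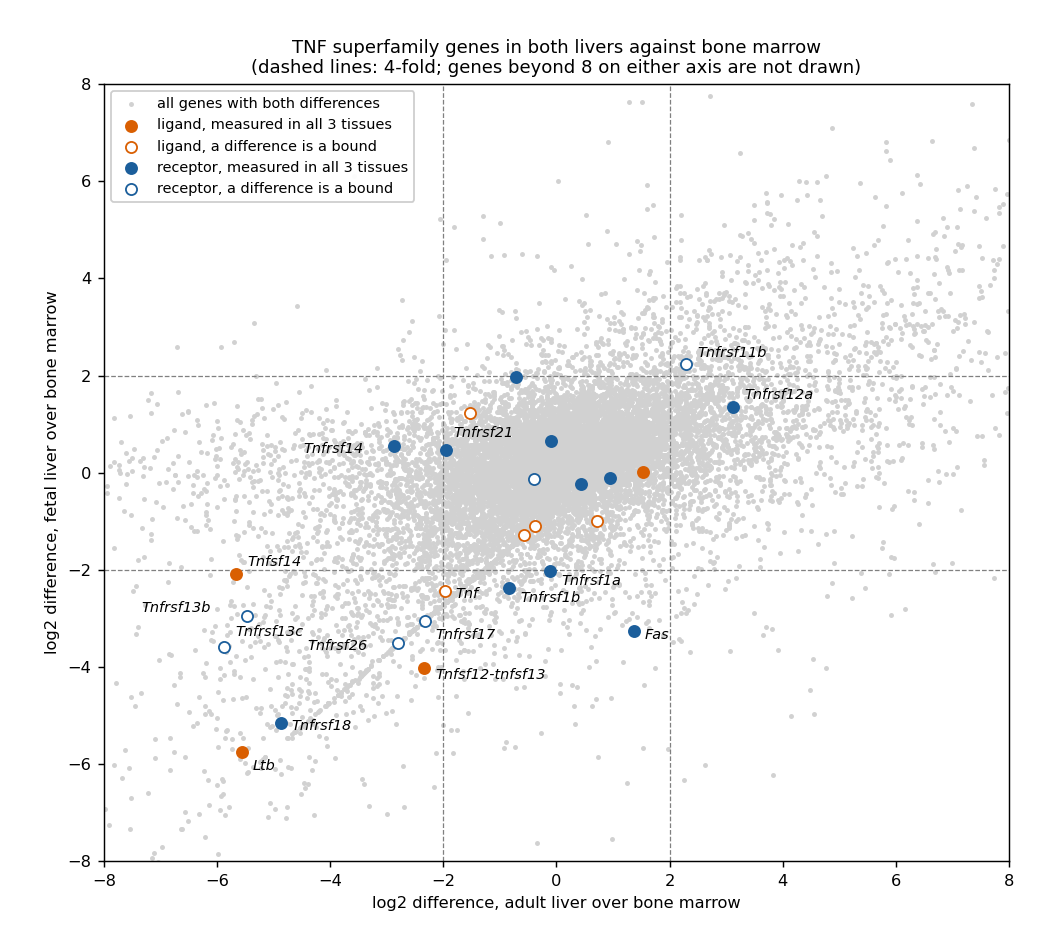
Log2 difference of adult liver over bone marrow (x axis) and of fetal liver over bone marrow (y axis) for members with both values, over all genes in grey, within 8 on either axis. Orange marks ligands, blue receptors, open points hold a bound, dashed lines are 4-fold, and both axes share the bone marrow array. Ltb and Tnfrsf18 lie below -4 on both axes, and Fas lies right of 0 and under the lower dashed line.

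In the B-cell system, 4 of 5 genes were at least 4-fold lower in adult liver than in bone marrow (15.0% of all genes) and 4 of 5 in fetal liver (8.29% of all genes), with median log2 differences of -2.34 and -3.05. Only 1 of the 5 was measured in both adult liver and bone marrow, and 4 in both fetal liver and bone marrow. The other values are bounds, from genes that entered through bone marrow. The gene not counted as lower in either comparison was Tnfsf13b, on the probe from which the gene was read, which had no RefSeq match. Its other probe, which had a RefSeq match, was at least 37.0-fold lower in adult liver and at least 60.7-fold lower in fetal liver than in bone marrow. Tnfrsf13c encodes the BAFF receptor that keeps B cells alive, Tnfrsf13b encodes TACI and Tnfrsf17 encodes BCMA, the receptor of plasma cells. Tnfrsf13c (mm9, chr15:82052225-82052284) had 0.0136 in adult liver, not well above background, 0.311 in fetal liver and 3.73 in bone marrow. The tissues stood in that order, with adult liver at least 4.88-fold lower than fetal liver and at least 58.6-fold lower than bone marrow, and fetal liver 12.0-fold lower than bone marrow.

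Tnfrsf13b, read from a probe without a RefSeq match, had the same order. Its signal was 0.0378 in adult liver, not well above background, 0.368 in fetal liver and 2.84 in bone marrow. It was at least 5.77-fold lower in adult liver than in fetal liver, at least 44.5-fold lower in adult liver than in bone marrow and 7.72-fold lower in fetal liver than in bone marrow. Its second probe, which had a RefSeq match, gave 0.0154 in adult liver and 0.00837 in fetal liver, against 0.0647 in bone marrow. That probe was well above background in bone marrow alone, at least 1.01-fold lower in adult liver and at least 1.67-fold lower in fetal liver. Tnfrsf17 had 0.0193 in adult liver and 0.0116 in fetal liver, against 0.321 in bone marrow, and was well above background in bone marrow alone, at least 5.03-fold lower in adult liver and at least 8.26-fold lower in fetal liver. With normexp correction these differences of Tnfrsf17 came to -0.53 and -0.85 on the log2 scale.

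Of the ligands, the probe named Tnfsf12-tnfsf13 reads the fused transcript of TWEAK and APRIL, now named Tnfsfm13, and the array file lists an APRIL transcript for it too, so the products cannot be told apart. It had 1.22 in adult liver and 0.378 in fetal liver, with 6.19 in bone marrow, 5.07-fold lower in adult liver and 16.4-fold lower in fetal liver than in bone marrow. Adult liver was 3.23-fold higher than fetal liver. Tnfsf13b encodes BAFF, and its probes disagreed, the first without a RefSeq match and the other with it. The first (mm9, chr8:10037383-10037442) had 0.0503 in adult liver, not well above background, 0.427 in fetal liver and 0.182 in bone marrow, at least 6.71-fold lower in adult than in fetal liver and 2.35-fold higher in fetal liver than in bone marrow. The other (mm9, chr8:10035561-10035620) was not well above background in either liver, with 0.0533 in adult liver and 0.0267 in fetal liver, against 2.36 in bone marrow, at least 37.0-fold lower in adult liver and at least 60.7-fold lower in fetal liver. The probes thus gave opposite directions between fetal liver and bone marrow.

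Markers of B cells were lower in both livers as well, and those of plasma cells were mixed. Of the B-lineage markers, 5 of 5 with a fold were at least 4-fold lower in adult liver than in bone marrow (15.0% of all genes) and 5 of 6 in fetal liver (8.29% of all genes). Cd79a gave a bound in both comparisons, and Pax5 had no fold in adult liver and a bound in fetal liver. The sum of 4 plasma cell markers was 26.6 in adult liver and 2.61 in fetal liver, against 26.3 in bone marrow, with Prdm1 and Irf4 not well above background in either liver and Sdc1 at 25.7 of that sum in adult liver. Sdc1, which epithelial cells also make, was 44.96-fold higher in adult liver and 4.48-fold higher in fetal liver than in bone marrow. Jchain, the joining chain of plasma cells, had 0.796 in adult liver, 0.0185 in fetal liver, not well above background, and 24.6 in bone marrow. Their part in the result was not tested.

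**Figure D4:**
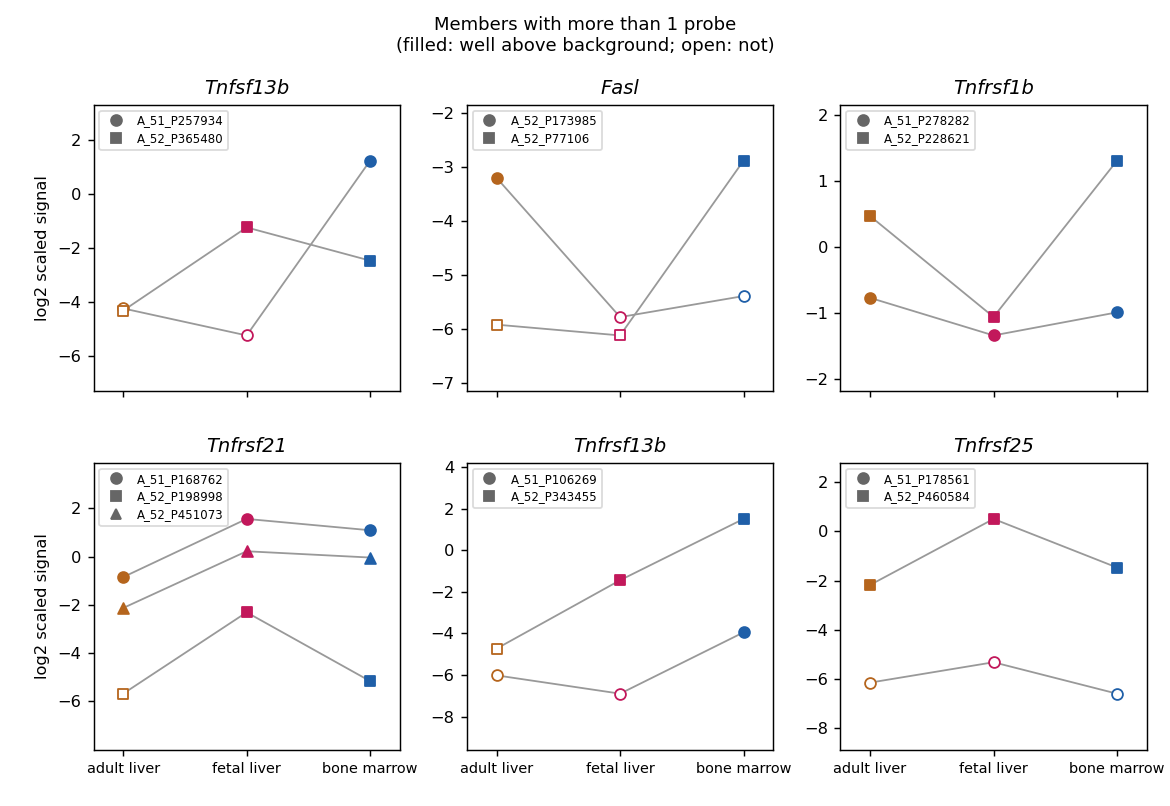
Log2 scaled signal (y axis, own range in each panel) of each probe of 6 members with more than 1 probe, in adult liver, fetal liver and bone marrow from left to right. Each line joins 1 probe, filled points are well above background and open points are not. For Tnfsf13b, Fasl and Tnfrsf1b the probes differ in which tissue is highest.

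Among the T-cell costimulatory genes, 1 stood out. Tnfrsf18 encodes GITR, known from regulatory T cells, and its probe (mm9, chr4:155402849-155402908) had 0.118 in adult liver and 0.0974 in fetal liver, against 3.45 in bone marrow. It was 29.2-fold lower in adult liver and 35.5-fold lower in fetal liver than in bone marrow, with the livers 1.21-fold apart. Tnfrsf4, which encodes OX40 and whose probe lies 12155 bases from that of Tnfrsf18 on mm9, had 0.563 in adult liver and 0.953 in fetal liver, against 0.604 in bone marrow, within 1.69-fold in every comparison.

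Tnfsf8, the ligand of CD30, was well above background in bone marrow alone, at 0.0321. Tnfsf4, Tnfsf9, Tnfsf18, Tnfrsf8 and Tnfrsf9, and of the other roles Tnfsf15 and Tnfrsf23, were well above background on no array. The sums of 6 T-cell and NK-cell markers were 0.830 in adult liver and 0.361 in fetal liver, with 4.18 in bone marrow, with Cd3g, Cd8a and Ncr1 not well above background in either liver. Of the 6 genes, 3 were at least 4-fold lower in adult liver than in bone marrow (15.0% of all genes) and 3 in fetal liver (8.29% of all genes). Cd4 went the other way, 2.13-fold higher in adult liver and 1.29-fold higher in fetal liver than in bone marrow. Cd3e was 1.445-fold higher in adult liver and 1.445-fold lower in fetal liver than in bone marrow. The sums of neutrophil markers given above were, like the T-cell and NK-cell sums, lower in both livers. Their part in the Tnfrsf18 difference was not tested.

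In the bone system, Tnfsf11 encodes RANKL, which drives osteoclast formation through its receptor RANK, encoded by Tnfrsf11a. Tnfsf11 had 0.0134 in adult liver and 0.00816 in fetal liver, against 0.0947 in bone marrow, and was well above background in bone marrow alone, at least 1.48-fold lower in adult liver and at least 2.44-fold lower in fetal liver. A second Tnfsf11 probe was not well above background on any array, with 0.00861 in bone marrow. Tnfrsf11a had 0.0391 in adult liver, not well above background, 0.0767 in fetal liver and 0.0840 in bone marrow, with fetal liver 1.095-fold lower than bone marrow, and its second probe was dim on all 3 arrays. Osteoblast markers summed to 0.0905 in adult liver and 0.199 in fetal liver, against 2.82 in bone marrow, with none of Bglap, Sp7, Runx2 and Ibsp well above background in adult liver. The 4 osteoclast markers summed to 7.196 in adult liver and 13.62 in fetal liver, against 14.01 in bone marrow. Ocstamp was 7.167-fold lower in adult liver and 1.25-fold higher in fetal liver than in bone marrow. Acp5 stayed within 1.295-fold across the tissues. Ctsk was well above background in bone marrow alone, at least 5.542-fold lower in adult liver and at least 9.091-fold lower in fetal liver. Calcr was dim on all 3 arrays. The part of either marker list in these values was not tested.

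All 3 tissue-response genes were highest in adult liver. Tnfrsf12a encodes Fn14, the TWEAK receptor that appears on injured and regenerating epithelium, and had 2.60 in adult liver and 0.764 in fetal liver, with 0.297 in bone marrow. Adult liver was 8.73-fold above bone marrow and 3.40-fold above fetal liver, and fetal liver was 2.57-fold above bone marrow. Tnfsf12, the ligand TWEAK, had 0.283 in adult liver and 0.0982 in fetal liver, against 0.0978 in bone marrow, 2.88-fold higher in adult liver than in fetal liver and 2.89-fold higher than in bone marrow. Tnfrsf19, a receptor of epithelial and progenitor cells, had 1.74 in adult liver and 1.09 in fetal liver, against 1.29 in bone marrow, within 1.60-fold. Adult liver was 1.35-fold above bone marrow, and a second Tnfrsf19 probe was dim on all 3 arrays. The hepatocyte sums given above ran the same way as Tnfrsf12a, and their part in its difference was not tested.

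A list of 10 family genes under other names was read in the same way. In adult liver against fetal liver, none was at least 4-fold higher and 1 lower of 7 with a fold, near the 14.2% and 12.0% of all genes. In adult liver against bone marrow, 1 was higher and 2 lower of 7 (all genes 18.8% and 15.0%), and in fetal liver against bone marrow 1 was higher and 1 lower of 5 (all genes 9.35% and 8.29%). Ltbr, the receptor of Ltb, had 32.5 in adult liver and 10.8 in fetal liver, against 8.32 in bone marrow, 3.01-fold higher in adult than in fetal liver and 3.91-fold higher than in bone marrow. Its order of tissues was thus unlike that of Ltb. Cd27, a receptor of T and B cells, had 0.0469 in adult liver, not well above background, 0.119 in fetal liver and 0.495 in bone marrow, at least 7.77-fold lower in adult liver and 4.16-fold lower in fetal liver. Relt, a receptor of blood cells, was at least 11.3-fold lower in adult liver than in fetal liver and at least 18.9-fold lower than in bone marrow. Ngfr, the low-affinity nerve growth factor receptor, was 12.5-fold higher in adult liver and 10.7-fold higher in fetal liver than in bone marrow.

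Downstream of the receptors, 4 of 8 NF-kB genes with a fold were at least 4-fold lower in fetal liver than in bone marrow and none was at least 4-fold higher, where 8.29% of all genes were lower and 9.35% higher. The median log2 difference of the 8 was -1.95, against 0.27 for all genes. In adult liver, 1 of 8 was at least 4-fold higher than in fetal liver (14.2% of all genes). There, 2 of 8 were at least 4-fold lower than in bone marrow (15.0% of all genes). Nfkbia, an inhibitor that NF-kB itself induces, had 13.6 in adult liver and 3.03 in fetal liver, with 22.7 in bone marrow, 7.49-fold lower in fetal liver than in bone marrow and 4.48-fold higher in adult than in fetal liver. Tnfaip3, which encodes the ubiquitin-editing inhibitor A20, was 6.69-fold lower, the inhibitor Nfkbie 8.47-fold lower and the factor Nfkb1 4.11-fold lower in fetal liver than in bone marrow. Rela, the main activating subunit, had 11.1 in adult liver and 6.17 in fetal liver, against 5.47 in bone marrow, within 2.02-fold.

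Of 19 adaptors and kinases, 2 were at least 4-fold higher and none lower in adult than in fetal liver (all genes 14.2% and 12.0%), and 2 were higher and 1 lower in adult liver against bone marrow (all genes 18.8% and 15.0%). None was at least 4-fold higher and 4 were lower in fetal liver than in bone marrow (all genes 9.35% and 8.29%), namely Traf1 at 5.37-fold, the noncanonical NF-kB kinase Map3k14 at 6.02-fold, the initiator caspase Casp8 at 4.16-fold and the ubiquitin ligase Birc3 at 4.13-fold. Cflar, which encodes the caspase inhibitor c-FLIP, had 21.4 in adult liver and 3.76 in fetal liver, against 7.95 in bone marrow, 5.69-fold higher in adult than in fetal liver, in the same direction as Fas. Chuk, a kinase that releases NF-kB, was 4.05-fold higher in adult than in fetal liver and 4.84-fold higher than in bone marrow, and in adult liver Ikbkg, the regulatory subunit of that kinase complex, was 5.15-fold higher than in bone marrow. Of the processing genes, Furin, a protease that cleaves several precursors in the secretory pathway, had 47.9 in adult liver and 5.36 in fetal liver, against 6.44 in bone marrow, and was 8.93-fold higher in adult than in fetal liver and 7.44-fold higher than in bone marrow. Adam17, the protease that sheds TNF, stayed within 1.32-fold across the tissues. Its partner Rhbdf1 was 6.33-fold higher in adult liver and 5.42-fold higher in fetal liver than in bone marrow. Rhbdf2, also a partner, was not, being 1.44-fold lower in adult liver and 1.02-fold higher in fetal liver than in bone marrow.

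**Figure D5:**
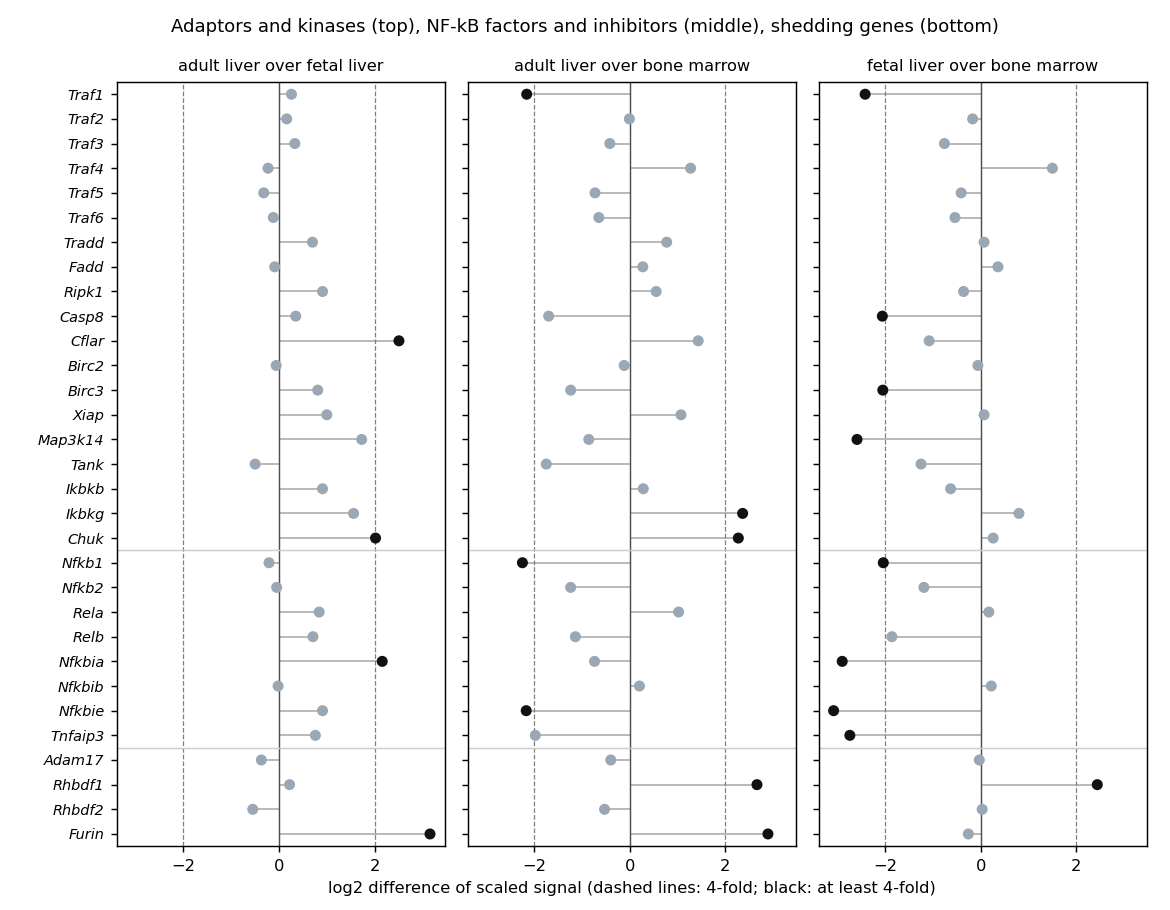
Log2 difference of scaled signal (x axis) for 19 adaptors and kinases, 8 NF-kB factors and inhibitors and 4 shedding and processing genes (rows), adult liver over fetal liver, adult liver over bone marrow and fetal liver over bone marrow from left to right. Black points are at least 4-fold apart and dashed lines mark 4-fold. Rel, with no fold, is not drawn. In the right panel all 4 black NF-kB points lie below 0.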

How the data were processed

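RNA of 3 tissues was labelled with Cy3 and hybridised to 1 Agilent 1-colour array per tissue, all on 1 slide read in 1 scan, per the file headers. The deposited scanner files, read with Agilent Feature Extraction 10.5.1.1 per the submitters' processing notes, hold the processed signal intensity of each spot, background-subtracted on a linear scale and not normalized between arrays. A deposited table of the whole series was not used here. These intensities were turned to log2 and scaled to the 75th percentile over the array's 43379 gene spots (Python 3.11.15, pandas 2.3.3), leaving out controls and spots with an outlier flag (75, 71 and 80). Spots of a probe were averaged. A gene was read from the probe well above background on most arrays, then the brightest. Members took the array's names, and 44 of their 52 probes carried an accession of the same gene. Other genes were named through RefSeq accessions and symbols. Probe coordinates are those of the array file (mm9), and exon or UTR positions were not analysed here. The naming rule gave all values for members at least 4-fold apart between any tissues, a range for other detected members, for which single values are printed instead, and only the name of members dim on all arrays. The code was tested on simulated data. The members and lists were chosen with earlier results of these data known. Alternatives included normexp (limma 3.58.1, R 4.3.3, offset 50), other scalings, all probes of a gene and other filters.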

Additional observations from a re-analysis of the deposited data

How the results depend on the processing

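With 1 array per tissue nothing measures the spread between animals, and signals near background set only bounds. Of the 33 differences of at least 4-fold between members, 17 stayed at least 4-fold in the same direction under every alternative that gave a value. One turned round: Fasl, adult liver over bone marrow, came to -0.43 with the mean of all probes. With normexp correction, 19 of 32 stayed. Lower members then numbered 2 of 20 in adult over fetal liver, where 7.89% of all genes were lower. Higher members numbered 1 of 23 in adult liver over bone marrow and 0 of 26 in fetal liver over bone marrow. Of all genes, 15.3% and 6.09% were higher there, and the members' medians were -0.52 and -0.22. These counts of higher members were also 1 and 0 with quantile normalization (medians -0.80 and -1.55) and with the 50th percentile (-1.08 and -1.45). Spike-in scaling over 7 probes moved the medians of all genes by -0.47, -2.88 and -2.45, so that 5.70% of all genes were higher and 67.8% lower in adult liver than in bone marrow, and 2.07% and 56.9% in fetal liver. Members then numbered 0 higher and 21 lower in either liver against bone marrow, with medians of -0.27, -3.62 and -3.48, the first turned in sign. The mean of all probes gave 4 lower members of 20 in adult over fetal liver (all genes 10.1%) and a median of -0.43 in adult liver over bone marrow. Restricting to genes well above background on all arrays gave 4 lower (median 0.68), 1 higher and 5 lower, and 0 higher and 7 lower (median -0.24). At 2-fold, 9 members were higher and 7 lower in adult over fetal liver (all genes 26.8% and 26.9%), 5 and 12 in adult liver over bone marrow (32.6% and 27.4%), and 4 and 14 in fetal liver over bone marrow (25.1% and 17.0%). Keeping outlier spots, file names alone, or a percentile over detected probes changed no count or median of members beyond the spot noise. The causes were not tested. No paired analysis was possible because each tissue has 1 array.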
